A study of Mus musculus with 18 samples.

Results

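Mouse bone marrow-derived macrophages that had received IL-4, IL-13 and TNFα together for 24 h were compared with macrophages kept in M-CSF alone. The comparison used 12 of the series' 18 RNA libraries, 6 in each group, chosen by their labels and not by any measured value. Of 48794 gene rows in the count table, 13177 had enough reads to be tested. The cells came from the marrow of male C57BL/6 mice and were matured for 7 days in recombinant human M-CSF at 50 ng/ml. For the final 24 h all groups received M-CSF at 10 ng/ml. The group labelled Control received nothing else, and the group labelled IL4_IL13_TNFa, called the 3-cytokine group here, received mouse IL-4, IL-13 and TNFα at 10 ng/ml each. The remaining 6 libraries, labelled IL4_IL13, received IL-4 and IL-13 only, and their levels are given beside those of the 3-cytokine group for some of the named genes. The labels do not say whether replicates came from separate mice or cultures, nor whether mice were pooled, so a p-value here weighs a difference against variation among libraries that may be technical only.

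IL-4 and IL-13 act on macrophages through receptors that share the IL-4 receptor alpha chain and activate the transcription factor STAT6, a route known for turning on alternative activation genes such as those of arginine breakdown, chitinase-like proteins and tissue-repair chemokines. TNFα binds TNF receptors 1 and 2 and activates NF-κB, a family of transcription factors that drives inflammatory genes and also its own inhibitors. M-CSF acts through the receptor encoded by Csf1r and supports the survival and division of macrophages.

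Total counts lay between 15744544 and 19309743 in the 6 control libraries and between 15645117 and 17808553 in the 6 libraries of the 3-cytokine group. In a principal component analysis of these 12 libraries the first component took 80.7% of the variance and separated the groups, and the second took 8.44% and set Control replicate 1 (at 79.47) apart from the other 11 libraries (−24.94 to 12.96). In Control replicate 1, 2007 genes lay more than 2-fold away from the average of controls 2 to 6, while for each of these the same count was 194 to 477. The median SD of log2 CPM (counts relative to library size as scaled by TMM) over genes was 0.216 in Control, 0.105 without replicate 1, and 0.121 in the 3-cytokine group. All 12 libraries stayed in the comparison. Several results that rest on Control replicate 1 are given with and without it, and others only with it. Counts from mitochondrial genes made up 1.33% ± 0.0726 of the total in Control and 1.71% ± 0.104 in the 3-cytokine group (SD, n = 6 each). This share did not overlap between the groups (two-sided exact permutation test, p = 0.00216, the smallest that 6 against 6 allow), and its part in the results was not tested.

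The label of macrophages was checked against 10 defining macrophage markers, all of which passed the filter on low counts (2 were called higher and 8 lower), with a summed level of 14910 to 26260 CPM in Control and 9170 to 9999 CPM in the 3-cytokine group. Markers of other cells were low by comparison. Of 10 T and NK cell markers and 9 mast cell and basophil markers, all were under 1 CPM in both groups, as were 7 of 8 B cell, 9 of 10 neutrophil, 7 of 8 endothelial and 9 of 10 erythroid and megakaryocyte markers. The neutrophil sum rose from 20.49 to 35.07 CPM in Control to 46.38 to 68.79 CPM and came mostly from Mmp8, a collagenase. Stromal and fibroblast markers, led by Col1a1, a collagen chain, summed to 25.06 to 776.1 CPM in Control and 76.18 to 467.5 CPM in the 3-cytokine group with no difference shown by the two-sided exact permutation test, which ignores the replicate numbers (p = 0.2965). Control replicate 1 held the lowest stromal sum. The sum was higher in the 3-cytokine library in 1 of the 6 same-numbered pairs, and of the 9 stromal markers tested 4 were called lower in the edgeR fit with the replicate block, though not without it. The endothelial sum, mostly Kdr, a VEGF receptor, was lower (0.7504 to 2.347 CPM against 5.621 to 23.25 CPM in Control, with replicate 1 at 23.25 CPM). The dendritic cell sum was higher in the 3-cytokine group (689.8 to 1011 CPM against 74.41 to 121.6 CPM) and there consisted mainly of Ccl22. In Control Ccl22 averaged only 0.463 CPM. The eosinophil sum (57.76 to 65.13 against 6.496 to 11.88 CPM) consisted in the 3-cytokine group mainly of Siglecf, a lectin also found on some macrophages. Of these lists, 4 of 10 dendritic cell markers and 2 of 7 eosinophil markers reached the level needed for testing. Of the 4 dendritic cell markers 3 were called higher and 1 lower, and of the 2 eosinophil markers 1 was called, as higher. The erythroid and megakaryocyte sum (76.61 to 147.5 CPM against 41.33 to 93.30 CPM) was almost entirely Pf4, a platelet chemokine also made by macrophages. Whether such cells contributed RNA was not tested, and in bulk RNA fewer cells of a type and less RNA per cell cannot be told apart.

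**Figure D1:**
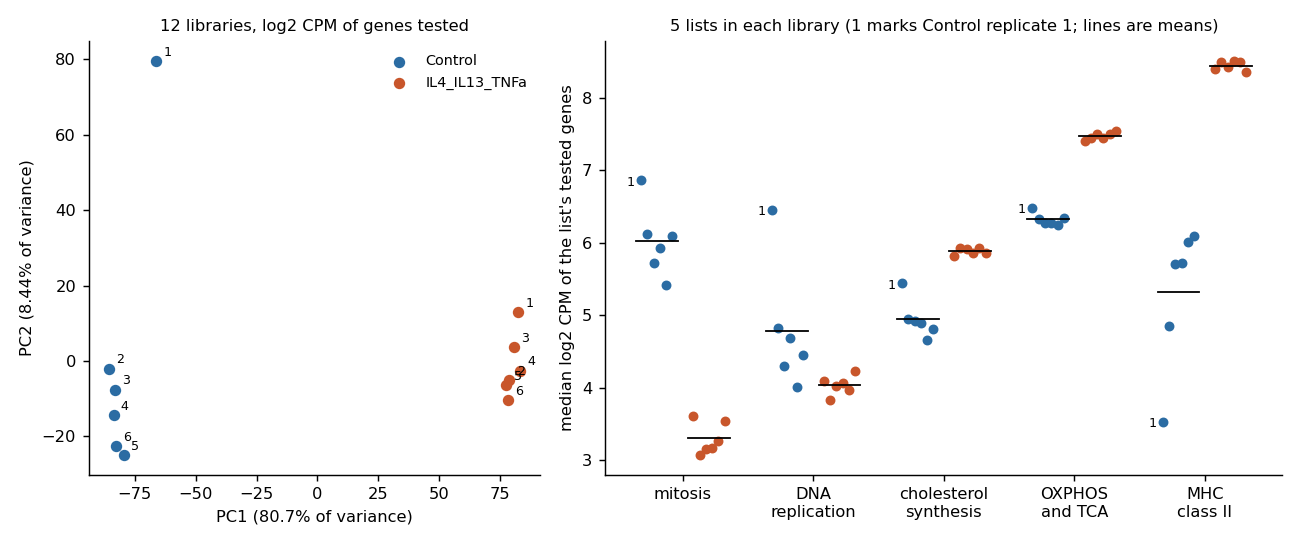
Left, the first principal components of log2 CPM for the 12 libraries, numbered by replicate, with Control replicate 1 at the top. Right, the median log2 CPM of 5 gene lists in each library (points) and the group means (lines); Control replicate 1 is the highest control for mitosis, DNA replication, cholesterol synthesis and oxidative phosphorylation (OXPHOS) and the lowest for MHC class II.

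Under the quasi-likelihood test of edgeR at an adjusted p below 0.05, 9722 of 13177 genes (73.8%) were called, 4803 of them higher in the 3-cytokine group (36.4%) and 4919 lower (37.3%). With so many genes called, a call alone says little about any gene. Sizes are therefore given throughout, and counts of members at least 2-fold higher or lower are read against the shares over all genes, 11.5% (1515 genes) higher and 15.1% (1985 genes) lower. The groups did not overlap in 6742 genes (51.2%). At sizes of 16-fold and more, 195 genes were higher and 131 lower. Of 250 processed pseudogenes tested, 116 were called higher and 18 lower, and of 223 lincRNAs, 48 were called higher and 93 lower. The balance of rises and falls depended on scaling: without TMM factors, against library totals, the median log2 fold change over all genes moved from −0.02 to −0.27 and 32.7% of the called genes were higher, against 49.4% with TMM. Directions of gene groups are therefore relative to the typical gene. Without Control replicate 1, 5209 genes were called higher and 5162 lower.

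**Figure D2:**
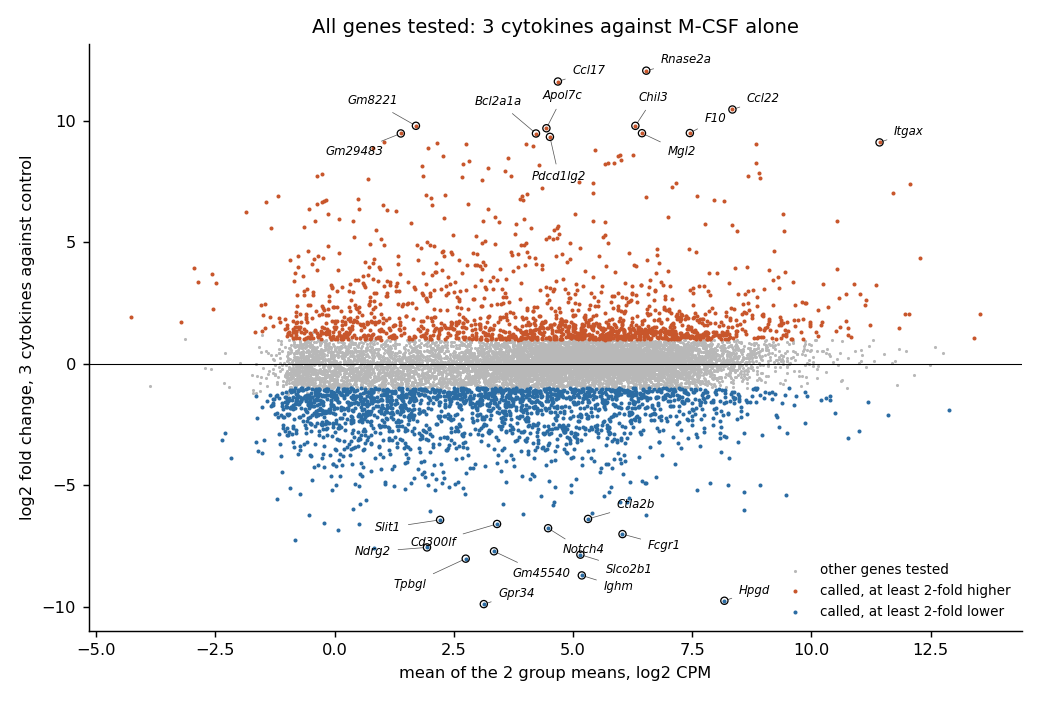
Log2 fold change of the 3-cytokine group against Control (y) by mean expression in log2 CPM (x) for the 13177 genes tested; the 1515 genes called and at least 2-fold higher are orange, the 1985 at least 2-fold lower are blue, and circles mark the 12 largest rises and 12 largest falls among genes whose higher group averaged 5 CPM or more.

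Among genes that reached 5 CPM and did not overlap between the groups, the 12 that rose most were Rnase2a, Ccl17, Ccl22, Gm8221, Chil3, Apol7c, F10, Mgl2, Gm29483, Bcl2a1a, Pdcd1lg2 and Itgax. The choice itself thus required separate groups and large gaps. Ccl17 and Ccl22 encode chemokines that attract T cells through the receptor CCR4. The lowest, median and highest values of Ccl17 were 0, 0 and 0.05795 CPM in the controls and 41.95, 52.1 and 58.2 CPM in the 3-cytokine libraries. Only 1 Ccl17 read was counted over the 6 controls against 4625 in the 3-cytokine group, a ratio of 5695 (95% counting interval 1022 to 225000.0). Intervals on such ratios are exact binomial (Clopper-Pearson) and cover counting error only. Ccl22 was at 0.192, 0.4497 and 0.769 CPM in the controls and 553, 616 and 841 CPM in the 3-cytokine libraries, a ratio of 1433 (95% counting interval 1087 to 1931). No control library of either gene came near any treated one. Both genes lie in one region of chromosome 8 (Ccl22 at 94745590 to 94751699 and Ccl17 at 94810453 to 94812036). With IL-4 and IL-13 alone Ccl17 was at 0.994 ± 0.424 CPM and Ccl22 at 6.17 ± 2.12 CPM (mean ± SD, n = 6, as for all values with ± in CPM below), and both were higher in the 3-cytokine group than there (log2 difference 5.69, adjusted p = 3.07e-14, and log2 difference 6.72, adjusted p = 1.88e-14).

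Rnase2a, of the eosinophil-associated ribonuclease family, was at 0, 0.0241 and 0.1102 CPM in the controls and 142, 192 and 232 CPM in the 3-cytokine libraries, a count ratio of 5140.0 (95% counting interval 2007 to 18870.0). This family has near-identical copies between which reads may have been divided, and the same holds for Chil3, a chitinase-like secreted protein with the close copy Chil4, and for Bcl2a1a, a survival protein of the BCL2 family. Chil3 had 0, 0.167 and 0.337 CPM against 111, 159 and 201 CPM in the same order. Bcl2a1a had 0, 0.0241 and 0.151 CPM against 31.9, 37.1 and 43.1 CPM. Mgl2, the lectin CD301b, had 0.0502, 0.196 and 0.503 CPM against 129, 172 and 232 CPM. The groups were far apart in all 4 genes, as their choice required. In the IL4_IL13 group Rnase2a stood at 259 ± 55.3 CPM, Chil3 at 163 ± 27.9 CPM and Mgl2 at 296 ± 25.8 CPM. Rnase2a and Mgl2 were lower in the 3-cytokine group than there (log2 difference −0.48, adjusted p = 0.00803, and log2 difference −0.77, adjusted p = 0.000196), while a difference for Chil3 was not shown (adjusted p = 0.827).

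F10, which encodes coagulation factor X, had values of 0.165, 0.351 and 1.15 CPM in the controls and 316, 354 and 363 CPM in the 3-cytokine libraries. Pdcd1lg2, which encodes the checkpoint ligand PD-L2, had 0, 0.0555 and 0.174 CPM in the controls and 41.3, 46.4 and 48.9 CPM in the 3-cytokine libraries. Apol7c, of the apolipoprotein L family, had 0, 0 and 0.2204 CPM in the controls and 35.9, 41.9 and 60.3 CPM in the 3-cytokine libraries. For all 3 genes every treated library was far above every control, again as their choice required. Itgax, the integrin CD11c, was the most counted of the 12, with 6.64, 9.55 and 16.02 CPM in the controls and 5161, 5457 and 5999 CPM in the 3-cytokine libraries (log2 fold change 9.11 ± 0.22 (SE), adjusted p = 5.61e-17). F10, Pdcd1lg2 and Itgax were also higher than in the IL4_IL13 group, where they reached 64.6 ± 15.7 CPM, 12.5 ± 2.5001 CPM and 1705 ± 315 CPM. Apol7c was at 0.428 ± 0.366 CPM there, below the 3-cytokine group (log2 difference 6.62, adjusted p = 5.53e-12). No control library held a read of Gm8221, an unprocessed pseudogene in the apolipoprotein L cluster on chromosome 15, or of Gm29483, a lincRNA on chromosome 1. The 3-cytokine libraries held 5.29, 6.04 and 9.25 CPM of Gm8221 and 4.24, 4.92 and 6.82 CPM of Gm29483. Against a floor of 3 counts over the group these were at least 239.7-fold and at least 194-fold higher in the 3-cytokine group.

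Promoter sequences are shown for members whose upstream bases hold a match to a motif bound by the factors of these cytokine routes. Windows of RefSeq (GRCm38.p6), from 250 bases before to 50 after the start site, were searched on both strands for 3 motifs of 10 bases: TTC and GAA with any 4 bases between (STAT6 type, the same on both strands), GGG and TTTCC with any 2 bases between (NF-κB type), and TTTC and TTTC with any 2 bases between (the ISRE type of interferon response genes). Of 19583 genes with a window, 6.48% held the STAT6 type, 1.57% the NF-κB type and 3.41% the ISRE type. Of the 12 largest rises 11 had a window, and 4 of these held the STAT6 type (Ccl17, Pdcd1lg2, Apol7c and Itgax) while none held the NF-κB type. Of the 12 largest falls 8 had a window, and none held any of the 3 motifs. Over the 14 alternative activation genes with a window, 4 held the STAT6 type (28.6%), all of them called higher. Of that list's 22 tested members 17 were called higher. The motif did not go with one direction over all genes: of 9759 tested genes with a window 532 held it, 204 called higher and 199 lower. Of 24 interferon response genes with a window 4 held it, all called lower. A match is a description of letters and not a bound site. The 250 bases before the start site of the 4 rises read as follows 5′ to 3′ on the gene's strand, with matches in capitals: Ccl17 at chr8:94810203-94810452, plus strand; Pdcd1lg2 at chr19:29410669-29410918, plus strand; Apol7c at chr15:77533316-77533565, minus strand; and Itgax at chr7:128129300-128129549, plus strand. In Apol7c the run of capitals nearest the start site is a pair of overlapping ISRE type matches.
Ccl17: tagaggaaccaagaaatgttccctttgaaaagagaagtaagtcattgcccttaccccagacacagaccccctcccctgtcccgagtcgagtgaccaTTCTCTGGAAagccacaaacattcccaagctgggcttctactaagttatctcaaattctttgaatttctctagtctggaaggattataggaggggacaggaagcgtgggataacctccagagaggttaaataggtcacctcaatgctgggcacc
Pdcd1lg2: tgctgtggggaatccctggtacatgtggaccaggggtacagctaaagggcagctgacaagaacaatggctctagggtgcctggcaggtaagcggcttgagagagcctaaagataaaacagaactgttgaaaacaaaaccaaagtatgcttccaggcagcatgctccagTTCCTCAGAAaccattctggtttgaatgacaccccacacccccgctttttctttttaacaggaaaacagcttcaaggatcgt
Apol7c: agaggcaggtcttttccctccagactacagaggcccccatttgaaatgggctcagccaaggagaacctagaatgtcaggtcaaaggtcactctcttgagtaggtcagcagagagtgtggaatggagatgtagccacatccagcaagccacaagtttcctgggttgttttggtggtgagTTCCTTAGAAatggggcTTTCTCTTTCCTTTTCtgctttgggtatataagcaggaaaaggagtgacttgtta
Itgax: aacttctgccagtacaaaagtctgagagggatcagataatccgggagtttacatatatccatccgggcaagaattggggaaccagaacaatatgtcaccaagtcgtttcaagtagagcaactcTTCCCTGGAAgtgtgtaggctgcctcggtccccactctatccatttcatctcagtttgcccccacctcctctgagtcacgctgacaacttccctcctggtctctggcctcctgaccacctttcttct

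By the same rule, the 12 genes that fell most were Gpr34, Hpgd, Ighm, Tpbgl, Slco2b1, Gm45540, Ndrg2, Fcgr1, Notch4, Cd300lf, Slit1 and Ctla2b. Hpgd, the 15-hydroxyprostaglandin dehydrogenase that inactivates prostaglandins, had values of 211, 654 and 679.5 CPM in the controls and 0.348, 0.504 and 1.07 CPM in the 3-cytokine libraries (log2 fold change −9.75 ± 0.36 (SE), adjusted p = 3.14e-14). Gm45540, a gene model of unsettled type, lies inside Hpgd on the same strand on chromosome 8, so the reads of the 2 cannot be told apart; it had 6.33, 22.9 and 24.1 CPM against 0, 0.0628 and 0.285 CPM. Gpr34, a lysophospholipid receptor, had 4.22, 20.3 and 24.1 CPM against 0, 0 and 0.0684 CPM, with 1 read over the 6 treated libraries, a ratio of 1536 (95% counting interval 275 to 60690.0). Fcgr1, the high-affinity IgG receptor CD64, had 88.6, 133 and 159 CPM in the controls and 0.616, 0.871 and 1.95 CPM in the 3-cytokine libraries (log2 fold change −7.00 ± 0.20 (SE), adjusted p = 7.92e-16). Slco2b1, an organic anion transporter, had 60.6, 71.4 and 81.8 CPM in the controls and 0.0711, 0.283 and 0.626 CPM in the 3-cytokine libraries (log2 fold change −7.85 ± 0.18 (SE), adjusted p = 3.80e-17). Every treated library lay far below every control in these genes, which the choice for no overlap and size of fall required.

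Ighm, the immunoglobulin mu constant region, had 8.69, 87.7 and 113 CPM against 0, 0.102 and 0.438 CPM, with Control replicate 1 the lowest control, while the summed B cell markers were only 1.958 to 4.519 CPM in Control and 1.386 to 2.626 CPM in the 3-cytokine group. Notch4, a Notch receptor, had 27.2, 39.2 and 84.6 CPM against 0.274, 0.354 and 0.6402 CPM. Slit1, an axon guidance ligand, had 1.46, 10.49 and 12.8 CPM against 0, 0.0315 and 0.375 CPM. In these genes too the treated libraries were all near 0. Cd300lf, an inhibitory receptor, had 16.7, 18.1 and 31.1 CPM against 0.0696, 0.168 and 0.498 CPM. Ctla2b, a cysteine protease inhibitor with a close copy, had 77.3, 77.8 and 81.3 CPM against 0.396, 0.962 and 1.39 CPM, with controls that hardly varied. Tpbgl had 11.6, 13.6 and 14.5 CPM against 0, 0 and 0.142 CPM and Ndrg2 4.12, 7.77 and 10.9 CPM against 0, 0.0313 and 0.0696 CPM. All 12 were called lower than in the IL4_IL13 group (adjusted p from 5.77e-15 for Slco2b1 to 0.000902 for Ndrg2), against 29.3% of all genes. In that group Hpgd stood at 113 ± 20.8 CPM, Fcgr1 at 21.9 ± 2.36 CPM and Cd300lf at 10.998 ± 2.65 CPM. The 12 were chosen for low values in these same treated libraries, so this is not separate evidence of a fall.

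The genes that gained most reads were of several kinds, among them lysosomal, lipid and antigen-processing genes. Lysosomal and lipid genes, such as Ctsd and Apoe, were also among those that lost most. The 10 genes that gained most CPM were Psap, Cd74, Mmp12, Fth1, C3, Itgax, Lgals3, Lpl, Prkcd and Ctss, and together they took 1.92% ± 0.142 of all counts in Control and 7.85% ± 0.219 in the 3-cytokine group (SD, n = 6 each), with 3.84% ± 0.489 in the IL4_IL13 group. These shares follow transcript length as well as abundance. Psap, the precursor of the saposins that help degrade sphingolipids, rose from 4628 ± 682 to 19152 ± 923 CPM (log2 fold change 2.05 ± 0.12 (SE), adjusted p = 1.82e-11). Mmp12, macrophage elastase, rose from 50.9 ± 18.2 to 8492 ± 463 CPM (log2 fold change 7.38 ± 0.22 (SE), adjusted p = 9.43e-16). C3, the central complement component, rose from 51.6 ± 10.9 to 6656 ± 809.7 CPM (log2 fold change 7.01 ± 0.20 (SE), adjusted p = 5.79e-16) and stood at 69.1 ± 17.1 CPM in the IL4_IL13 group. Fth1, the ferritin heavy chain, rose from 7118 ± 802 to 14683 ± 629.8 CPM. Lgals3, galectin-3, rose from 1651 ± 141 to 6820.3 ± 349.6 CPM, and Lpl, lipoprotein lipase, from 1555 ± 151 to 6396 ± 341 CPM. Prkcd, a protein kinase C isoform, rose from 497 ± 86.7 to 4751 ± 213 CPM.

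The 10 genes that lost most CPM were Lyz2, Lrp1, Apoe, Stab1, Ctsd, Mpeg1, Adgre1, Csf1r, Selenop and Itm2b, and their joint share went from 4.58% ± 0.735 of counts to 1.26% ± 0.0338. Lyz2, the macrophage lysozyme, had values of 7229, 12454 and 14639 CPM in the controls and 2639, 3261 and 3572 CPM in the 3-cytokine libraries (log2 fold change −1.91 ± 0.14 (SE), adjusted p = 3.67e-10). Adgre1, the F4/80 antigen used to define mouse macrophages, had 1437, 2509 and 2611 CPM in the controls and 556, 575 and 589.9 CPM in the 3-cytokine libraries (log2 fold change −2.01 ± 0.11 (SE), adjusted p = 3.55e-12). Stab1, the scavenger receptor stabilin-1, fell from 3139 ± 551 to 374 ± 43.6 CPM, and Apoe, apolipoprotein E, from 3592 ± 1427 to 525 ± 129 CPM. Selenop, the selenium carrier of plasma, fell from 1381 ± 529 to 32.5 ± 3.95 CPM (log2 fold change −5.41 ± 0.32 (SE), adjusted p = 2.66e-11). In Apoe, Selenop, Itm2b, Adgre1 and Lyz2 the lowest control was replicate 1. The groups did not overlap for 8 of these 10 genes, which were chosen for large losses, against 51.2% of all genes. Csf1r, the M-CSF receptor, and Mpeg1, a pore-forming protein, fell by 0.46 and 0.89 on the log2 scale, with control values of 3700.5 to 5771 and 2737 to 5458 CPM against treated values of 3723 to 3901 and 2215 to 2791 CPM. Without Control replicate 1 the changes were −0.54 and −0.998, and that library is the one that overlapped.

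Il4ra and Stat6 moved little, while Cish and Socs1, feedback inhibitors of cytokine signalling, rose many fold. Of 19 tested genes of type 2 cytokine receptors and STAT6 signalling, 10 were called higher and 6 lower, and 9 were at least 2-fold higher and 1 at least 2-fold lower, with a median log2 fold change of 0.48. Il4ra, the shared receptor chain, had 106, 134 and 137 CPM in the controls and 92.6, 95.8 and 99.2 CPM in the 3-cytokine libraries (log2 fold change −0.42 ± 0.07 (SE), adjusted p = 1.52e-05), a small fall without overlap. Stat6 was at 318, 337 and 339.6 CPM in the controls and 284, 299 and 314 CPM in the 3-cytokine libraries (log2 fold change −0.16 ± 0.03 (SE), adjusted p = 0.000556). Cish, Socs1 and the transcription factor gene Egr2 rose most. Cish, an inhibitor of cytokine receptor signalling, rose from 0.378 ± 0.149 to 128.2 ± 8.997 CPM and Socs1, an inhibitor of Janus kinases, from 1.42 ± 0.275 to 84.2 ± 8.704 CPM. Egr2 rose from 5.55 ± 1.89 to 571 ± 23.4 CPM. Bcl6, a transcriptional repressor, fell by 1.29 on the log2 scale, Ptpn6, the phosphatase SHP-1, by 0.95 and Irs2, an adaptor of the IL-4 receptor, by 0.85. Cish, Socs1 and Egr2 were also above their IL4_IL13 levels of 31.6 ± 4.77 CPM, 48.5 ± 6.12 CPM and 251 ± 36.2 CPM (log2 difference 2.02, adjusted p = 3.27e-12 for Cish).

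Of 28 genes of TNF receptors and NF-κB signalling, 20 were called higher and 5 lower, and 12 were at least 2-fold higher and 1 at least 2-fold lower (median 0.90). The members that rose most were inhibitors and adaptors of the route. Tnfaip3, which encodes the inhibitor A20, had 18.6, 23.03 and 28.7 CPM in the controls and 160.1, 168 and 180.3 CPM in the 3-cytokine libraries (log2 fold change 2.86 ± 0.12 (SE), adjusted p = 1.55e-13). Nfkbia, which encodes IκBα, had 98.7, 116 and 118 CPM in the controls and 340.5, 351 and 379 CPM in the 3-cytokine libraries (log2 fold change 1.67 ± 0.06 (SE), adjusted p = 5.17e-15). Traf1, a TNF receptor adaptor, rose from 15.1 ± 0.938 to 199 ± 9.63 CPM, and Nfkbie, a further IκB, from 38.7 ± 8.29 to 358 ± 9.32 CPM. The receptor genes parted: Tnfrsf1b, TNF receptor 2, had 213, 488 and 558 CPM in the controls and 915, 937 and 1066 CPM in the 3-cytokine libraries (log2 fold change 1.13 ± 0.16 (SE), adjusted p = 4.99e-06), whereas Tnfrsf1a, TNF receptor 1, had 171, 179 and 205 CPM in the controls and 148, 149 and 159.9 CPM in the 3-cytokine libraries (log2 fold change −0.26 ± 0.04 (SE), adjusted p = 2.17e-05). Nfkbiz, an atypical IκB, fell from 68.8 ± 21.2 to 15.4 ± 1.71 CPM and was the only member at least 2-fold lower. Map3k14, the NF-κB-inducing kinase, fell by 0.92 and Ripk1, a TNF receptor kinase, by 0.51 on the log2 scale. Tnf itself was at 11.4, 14.5 and 30.5 CPM in the controls and 20.9, 30.03 and 38.1 CPM in the 3-cytokine libraries, with Control replicate 1 above the lower treated libraries (log2 fold change 0.89 ± 0.21 (SE), adjusted p = 0.000852).

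**Figure D3:**
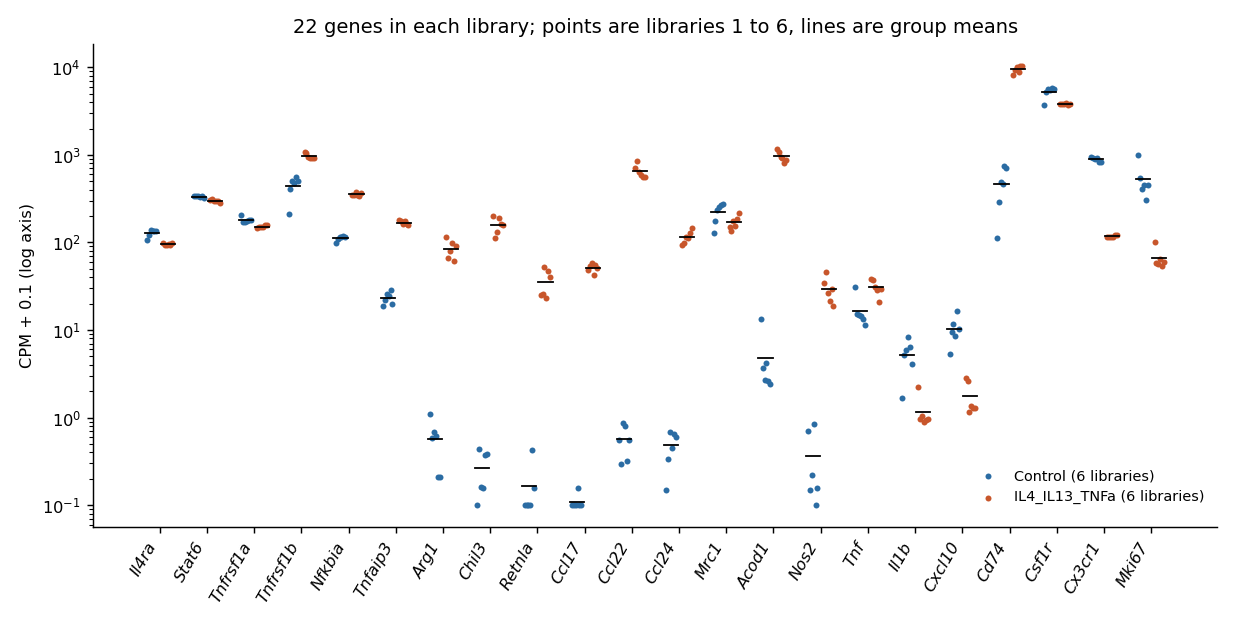
CPM + 0.1 on a log axis for 22 genes of the cytokine routes and their targets, in the 6 Control (blue) and 6 IL4_IL13_TNFa (orange) libraries, ordered by replicate from left to right within each group, with group means as lines. Levels can be compared within a gene and not between genes. The groups overlap for Mrc1, Tnf, Il1b and Csf1r and for none of the other 18. Over all genes tested, 51.2% did not overlap.

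The NF-κB type motif was found in 7 of the 23 list members with a promoter window (30.4%, against 1.57% of all windows), of which 6 were called higher and 1 lower. Over all tested genes with a window 163 held this motif, 70 of them called higher and 57 lower. It also lay before 2 of 8 CXC family chemokine genes, both of which rose. The upstream bases of Nfkbia (chr12:55492648-55492897, minus strand) and of the neutrophil chemokine gene Cxcl3 (chr5:90785851-90786100, plus strand) are shown, GRCm38.p6, 5′ to 3′ on the gene's strand with the match in capitals, which in Nfkbia is the motif's reverse complement.
Nfkbia: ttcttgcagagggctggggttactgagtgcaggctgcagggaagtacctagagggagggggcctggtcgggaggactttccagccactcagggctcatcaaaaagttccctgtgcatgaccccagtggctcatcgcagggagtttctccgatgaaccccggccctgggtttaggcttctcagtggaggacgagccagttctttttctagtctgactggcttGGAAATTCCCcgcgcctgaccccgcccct
Cxcl3: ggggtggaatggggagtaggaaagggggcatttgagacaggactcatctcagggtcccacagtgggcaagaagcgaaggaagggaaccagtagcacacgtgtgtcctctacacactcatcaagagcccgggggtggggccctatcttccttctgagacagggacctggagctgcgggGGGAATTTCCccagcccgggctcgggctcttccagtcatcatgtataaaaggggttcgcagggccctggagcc

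Early response transcription factors were mixed. Of 20 tested AP-1 and early response genes, 12 were called higher and 6 lower, 11 of them at least 2-fold higher and 3 at least 2-fold lower (median 1.13). Batf3, a factor known for its role in dendritic cells, rose from 0.9899 ± 0.234 to 31.2 ± 4.36 CPM and Maff, a small MAF protein, from 1.62 ± 1.24 to 17.6 ± 1.61 CPM. Nr4a1, an orphan nuclear receptor, fell from 13.1 ± 2.41 to 0.311 ± 0.139 CPM and Egr1 from 6.03 ± 1.04 to 0.835 ± 0.0984 CPM. Zfp36, whose product destabilises cytokine mRNAs, fell from 162 ± 30.7 to 95.4 ± 5.796 CPM. So Egr1 and Egr2, members of 1 family, moved in opposite directions.

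Alternative activation genes had the highest median of the 33 gene lists: of 22 tested, 17 were called higher and 2 lower, 16 at least 2-fold higher and 1 at least 2-fold lower, with a median of 5.53 against −0.02 over all genes. Arg1, arginase 1, had 0.1102, 0.501 and 1.004 CPM in the controls and 60.8, 84.7 and 116 CPM in the 3-cytokine libraries (log2 fold change 7.46 ± 0.35 (SE), adjusted p = 9.37e-13). Retnla, a resistin-like secreted protein, had 0, 0 and 0.331 CPM in the controls and 22.9, 33.1 and 51.6 CPM in the 3-cytokine libraries (log2 fold change 8.98 ± 0.61 (SE), adjusted p = 2.08e-10). Ccl24, an eosinophil chemokine, had 0.0502, 0.426 and 0.592 CPM in the controls and 93.6, 115 and 147 CPM in the 3-cytokine libraries (log2 fold change 8.26 ± 0.33 (SE), adjusted p = 8.03e-14). For these 3 genes every control lay far below every treated library. Mrc1, the mannose receptor often used to mark alternative activation, did not share the direction: it had 127, 243 and 275 CPM in the controls and 134, 164 and 217 CPM in the 3-cytokine libraries and was slightly lower (log2 fold change −0.39 ± 0.15 (SE), adjusted p = 0.0304), with overlap and with the call lost when any of 7 single libraries was left out (adjusted p up to 0.0798). Ch25h, a cholesterol hydroxylase, fell from 18.7 ± 17.3 to 5.42 ± 1.18 CPM, or by 1.11 without Control replicate 1 and 1.79 with it on the log2 scale.

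Arg1 and Retnla were far above Control yet below their level with IL-4 and IL-13 alone, and Mrc1 was below its level in either of the other groups. Arg1 was at 646 ± 219 CPM in the IL4_IL13 group (log2 difference −2.92, adjusted p = 2.86e-09), Retnla at 1102 ± 466 CPM (log2 difference −4.95, adjusted p = 2.60e-10) and Mrc1 at 1260.0 ± 92.6 CPM (log2 difference −2.89, adjusted p = 3.09e-11). Ccl24, at 3.59 ± 1.74 CPM there, was the reverse (log2 difference 5.04, adjusted p = 5.00e-12). Over the 22 members, 7 were higher and 13 lower than in the IL4_IL13 group, where 59.6% of all genes differed (30.3% higher and 29.3% lower). These differences use the same treated libraries as the comparison with Control and are not separate evidence for it.

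Most inflammatory activation genes tested were higher as well. Of 12 tested, 8 were called higher and 3 lower, 7 at least 2-fold higher and 2 at least 2-fold lower (median 2.13), and 10 more listed genes did not reach the level for testing or were not matched. A gene such as Nos2, near 0 in the other groups, entered only through the 3-cytokine group and could only count as higher. Acod1, which makes itaconate, had 2.29, 3.11 and 13.3 CPM in the controls and 805, 938 and 1180.4 CPM in the 3-cytokine libraries (log2 fold change 7.66 ± 0.64 (SE), adjusted p = 3.62e-09), with the highest control in replicate 1. Nos2, the inducible nitric oxide synthase, had 0, 0.0871 and 0.753 CPM in the controls and 18.8, 27.9 and 46.5 CPM in the 3-cytokine libraries, a count ratio of 111 (95% counting interval 77.3 to 167). Slc7a11, the cystine importer, rose from 4.002 ± 4.41 to 952 ± 148 CPM (log2 fold change 7.86 ± 0.43 (SE), adjusted p = 8.69e-12; 8.73 without Control replicate 1, the highest control). Il1b, interleukin-1β, went the other way with 1.56, 5.42 and 8.23 CPM in the controls and 0.793, 0.865 and 2.12 CPM in the 3-cytokine libraries (log2 fold change −2.26 ± 0.45 (SE), adjusted p = 0.000185), and its groups overlapped. Marcksl1, a MARCKS-related actin-binding protein, fell from 76.8 ± 7.304 to 23.3 ± 3.95 CPM. Acod1 and Nos2 were at 2.55 ± 4.22 CPM and 0.0789 ± 0.089995 CPM in the IL4_IL13 group, below the 3-cytokine group in both cases (log2 difference 8.47, adjusted p = 3.22e-09, and log2 difference 8.31, adjusted p = 9.90e-11).

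Arg1 and Nos2, the enzymes at the head of competing arginine routes, were both higher in the same libraries. Of 15 tested genes of arginine and polyamine metabolism, 8 were called higher and 2 lower, 7 at least 2-fold higher and 1 at least 2-fold lower (median 1.01; 1.80 without Control replicate 1, with 11 called higher). Ass1, argininosuccinate synthase, which remakes arginine from citrulline, rose from 4.58 ± 2.897 to 491 ± 44.8 CPM and was at 12.3 ± 2.804 CPM in the IL4_IL13 group (log2 difference 5.31, adjusted p = 2.64e-12). Sat1, which breaks down polyamines, fell from 348 ± 97.3 to 156 ± 12.7 CPM with overlap, and Ckb, the brain-type creatine kinase, by 0.28 on the log2 scale. Per length of transcript, Arg1 was at 38.2 and Nos2 at 6.68 RPKM (counts scaled by exon length and library size) in the 3-cytokine group.

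The chemokine genes differed in makeup as well as in amount. Of 12 tested CC chemokines, 7 were called higher and 4 lower, 7 at least 2-fold higher and 3 at least 2-fold lower (median 2.13), and of 9 CXC, CX3C and XC chemokines, 6 were called higher and 2 lower, 4 and 2 of them at least 2-fold (median 0.64). Those tested were 12 of 19 listed CC and 9 of 16 listed other chemokines. Any that passed the filter only through the 3-cytokine group could only count as higher. Compared per length, the 21 measured chemokines summed to 462.1 ± 24.1 RPKM in Control and 2214 ± 59.5 RPKM in the 3-cytokine group (SD, n = 6 each), and the library ranges of 425.3 to 499.1 and 2130.0 to 2274 RPKM were far apart. Ccl9, which attracts cells bearing CCR1, went from 116 to 1139 RPKM and made up 51.5% of the sum in the 3-cytokine group. Ccl22 came next with 279 RPKM and a 12.6% share, from rank 19 of 21 in Control. In Control the largest share was that of Cxcl16, a membrane-bound chemokine, at 29.4%, with 136 RPKM there and 212 RPKM in the 3-cytokine group.

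Single chemokines moved in both directions. Cxcl3 rose from 0.386 ± 0.431 to 153 ± 48.2 CPM and Cxcl2 from 6.68 ± 1.49 to 79.03 ± 15.2 CPM, both ligands of CXCR2. Ppbp, a platelet chemokine, rose from 0.821 ± 0.179 to 6.32 ± 1.51 CPM. Cxcl10, which interferons induce, had 5.27, 9.78 and 16.4 CPM in the controls and 1.07, 1.22 and 2.74 CPM in the 3-cytokine libraries (log2 fold change −2.63 ± 0.33 (SE), adjusted p = 8.54e-07). Ccl3 fell from 18.8 ± 3.93 to 6.14 ± 0.902 CPM and Ccl4 from 9.61 ± 1.17 to 2.85 ± 0.602 CPM, both chemokines that attract monocytes and T cells. Ccl5 and Ccl7, which also attract monocytes, rose from 2.395 to 54.6 RPKM and, with overlap, from 0.6404 to 2.92 RPKM. Cxcl14 fell from 118 ± 34.1 to 27.4 ± 4.19 CPM and Ccl25, a ligand of CCR9, by 0.28 on the log2 scale with overlap. Cxcl2, Cxcl3 and Ppbp were above their IL4_IL13 levels of 1.49 ± 1.74 CPM, 1.23 ± 2.77 CPM and 0.178 ± 0.0874 CPM, and for Ccl3 no difference from its level of 7.798 ± 1.71 CPM was shown (adjusted p = 0.0774).

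**Figure D4:**
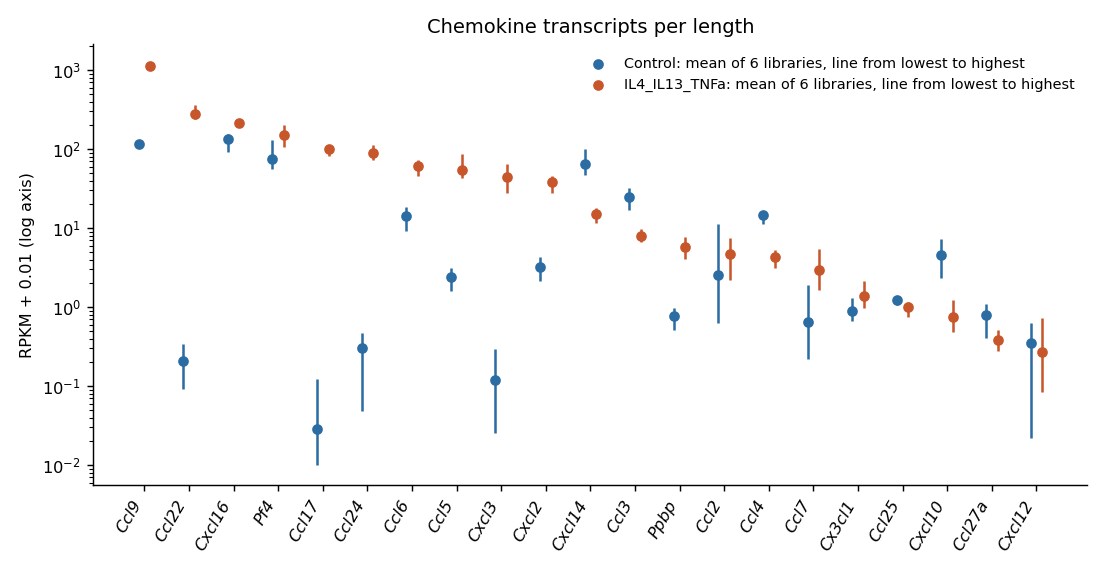
Level per transcript length (RPKM + 0.01, log axis) of 21 chemokines in Control (blue) and the 3-cytokine group (orange), as means of 6 libraries with lines from the lowest to the highest library, ordered by level in the 3-cytokine group. Ccl22, Ccl17, Ccl24 and Cxcl3 lie below 1 RPKM in every control and above 25 RPKM in every treated library, while Cxcl14, Ccl3, Ccl4 and Cxcl10 are lower in all treated libraries than in any control.

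The genes of chemoattractant receptors were divided. Of 16 tested, 4 were called higher and 8 lower, all 4 and 7 of the 8 at least 2-fold (median −0.34). Cx3cr1, the fractalkine receptor, had 825, 899.6 and 936 CPM in the controls and 114, 116 and 121 CPM in the 3-cytokine libraries (log2 fold change −2.92 ± 0.10 (SE), adjusted p = 7.06e-15). S1pr1, which guides cells along sphingosine-1-phosphate, fell from 179 ± 20.5 to 5.999 ± 0.861 CPM. C5ar1 and C3ar1, the receptors for complement fragments C5a and C3a, fell from 580.0 ± 73.8 to 39.4 ± 4.93 CPM and from 1260.4 ± 154 to 177 ± 9.07 CPM, and Cxcr4 from 348 ± 98.2 to 42.99 ± 5.44 CPM. The 3 named rises were Cxcr2 (0.0369 ± 0.0466 to 14.03 ± 1.74 CPM), Cmklr1, the chemerin receptor (8.04 ± 3.56 to 58.2 ± 12.7 CPM), and Ccr1 (6.53 ± 0.956 to 29.3 ± 2.31 CPM). Cxcr2 and the genes of its ligands Cxcl2 and Cxcl3 were all higher. Cx3cr1 was at 67.6 ± 13.3 CPM in the IL4_IL13 group, below its level with TNFα added (log2 difference 0.79, adjusted p = 8.95e-07).

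Most antigen presentation genes rose. Of 12 class II genes, 10 were called and at least 2-fold higher and 1 at least 2-fold lower (median 2.34). Cd74, the invariant chain, had 112, 478 and 747 CPM in the controls and 8124, 9629 and 10365 CPM in the 3-cytokine libraries (log2 fold change 4.34 ± 0.37 (SE), adjusted p = 5.28e-09). H2-Eb1 and H2-Aa, class II chains, rose from 71.1 ± 39.6 to 1037 ± 124 CPM and from 95.9 ± 52.4 to 1299 ± 143 CPM. Ctss, cathepsin S, which processes the invariant chain, rose from 1938 ± 298 to 5342 ± 269.8 CPM. In Cd74, H2-Eb1 and H2-Aa the lowest control was replicate 1, and without it the rises were 4.14, 3.65 and 3.55 on the log2 scale. Of 18 class I genes 17 were called higher and none lower, 6 of them at least 2-fold (3 when scaled to library totals), with a median of 0.90. The named members were Psmb10, an immunoproteasome subunit (log2 fold change 2.06 ± 0.10 (SE), adjusted p = 1.10e-12), Calr, calreticulin (1.53 ± 0.08), and Psme2, a proteasome activator (1.52 ± 0.07). Cd74 was at 2332 ± 820.4 CPM in the IL4_IL13 group (log2 difference 2.02, adjusted p = 4.16e-05).

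Costimulatory and checkpoint ligands were divided. Of 20 tested, 8 were called and at least 2-fold higher, and 9 were called lower, 7 of them at least 2-fold (median −0.06). Beside Pdcd1lg2 and Itgax, Tnfsf4, OX40 ligand, rose most, from 0.0852 ± 0.104 to 23.7 ± 6.202 CPM, and it was at 0.162 ± 0.116 CPM in the IL4_IL13 group. Icosl, the ICOS ligand, fell from 64.5 ± 3.801 to 2.43 ± 0.533 CPM, Havcr2, the checkpoint receptor TIM-3, from 60.9 ± 27.2 to 6.62 ± 1.19 CPM and Vsir, the checkpoint protein VISTA, from 676 ± 176 to 92.9 ± 14.3 CPM. The groups did not overlap for any of these 4, which were named for large changes. In the list 15 of 20 did not overlap, against 51.2% of all genes.

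Among interferon-response genes more were called lower than higher. Of 30 tested, 8 were called higher and 17 lower, 3 at least 2-fold higher and 9 at least 2-fold lower (median −0.52). Scaled to library totals, 4 were called higher and 21 lower. The groups did not overlap for 9 of the 30, against 51.2% of all genes, and the list's median log2 CPM ran from 3.99 to 5.91 in the controls and from 4.69 to 5.69 in the 3-cytokine libraries. Ifit3, which restricts viral RNA, fell from 37.1 ± 18.3 to 3.34 ± 1.93 CPM and Oas2, an RNA-sensing synthetase, from 209 ± 48.4 to 41.1 ± 12.6 CPM. Gbp2 and Gbp3, interferon-induced GTPases, rose from 15.4 ± 4.22 to 678 ± 38.3 CPM and from 17.9 ± 5.42 to 132 ± 7.35 CPM, and Usp18, an inhibitor of interferon signalling, from 14.9 ± 5.46 to 77.3 ± 12.04 CPM. Against the IL4_IL13 group 27 of the 30 members were called higher and none lower, where 30.3% of all genes were higher and 29.3% lower. Gbp2 was at 10.8 ± 4.75 CPM and Ifit3 at 1.38 ± 0.318 CPM in that group. The ISRE type motif stood in 15 of the 24 members with a promoter window (62.5%, against 3.41% of all windows), of which 4 were called higher and 9 lower. Gbp3 (chr3:142559794-142560043, plus strand), which rose, and Ifit3 (chr19:34583279-34583528, plus strand), which fell, are shown to set side by side 2 promoters with the same motif and opposite directions, GRCm38.p6, 5′ to 3′ with matches in capitals. In Gbp3 the capitals hold a pair of overlapping matches.
Gbp3: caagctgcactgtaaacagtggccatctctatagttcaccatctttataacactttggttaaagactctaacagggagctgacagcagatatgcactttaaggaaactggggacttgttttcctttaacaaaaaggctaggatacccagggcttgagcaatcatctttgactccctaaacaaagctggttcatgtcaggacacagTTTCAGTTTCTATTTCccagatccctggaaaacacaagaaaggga
Ifit3: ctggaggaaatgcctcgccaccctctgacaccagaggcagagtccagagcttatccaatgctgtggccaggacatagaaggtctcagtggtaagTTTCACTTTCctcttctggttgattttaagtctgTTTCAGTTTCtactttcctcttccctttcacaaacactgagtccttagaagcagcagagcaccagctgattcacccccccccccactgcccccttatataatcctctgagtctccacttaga

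Among receptors that sense microbes or take up dead cells, more members fell than rose. Of 29 pattern recognition and inflammasome genes, 8 were called higher and 14 lower, 6 and 9 of them at least 2-fold (median −0.29). Tlr9, the sensor of unmethylated DNA, fell from 77.5 ± 22.02 to 5.21 ± 1.08 CPM, Cd14, the lipopolysaccharide co-receptor, from 477 ± 77.9 to 65.5 ± 7.24 CPM and Nlrp1b, an inflammasome sensor, from 117 ± 17.5 to 19.4 ± 1.88 CPM. Clec4n and Clec7a, the dectins 2 and 1 that bind fungal sugars, rose from 11.96 ± 4.37 to 211 ± 11.6 CPM and from 98.7 ± 44.7 to 1067 ± 60.4 CPM, and Il1rn, the interleukin-1 receptor antagonist, from 4.93 ± 2.34 to 70.8 ± 14.8 CPM. Of 16 scavenger and apoptotic cell uptake genes, 3 were called higher and 12 lower, 2 and 10 of them at least 2-fold (median −2.16). Mertk, a receptor for dying cells, fell from 124 ± 34.9 to 13.04 ± 1.996 CPM and its ligand gene Gas6 from 369 ± 27.8 to 35.3 ± 2.83 CPM. Cd5l fell from 20.1 ± 5.32 to 1.18 ± 0.236 CPM, while Axl, a relative of Mertk, rose by 0.48 on the log2 scale, Msr1, scavenger receptor A, by 1.64 and Cd36, a fatty acid and lipoprotein receptor, by 2.71. Lrp1, a large endocytic receptor, fell from 5108 ± 982 to 1175 ± 93.2 CPM.

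Macrophage identity genes were lower as a list but not uniformly. Of 18 tested, 3 were called higher and 14 lower, 1 and 8 of them at least 2-fold (median −0.66). Maf, a transcription factor of resident macrophages, fell from 593 ± 89.02 to 18.7 ± 1.72 CPM, and Siglec1, the sialoadhesin CD169, from 218 ± 29.1 to 15.99 ± 4.21 CPM. The called rises were Cebpb (127 ± 4.54 to 297 ± 29.6 CPM) and Spi1, which encodes PU.1 (413 ± 24.8 to 662 ± 19.4 CPM), 2 myeloid transcription factors, and Cd68, a lysosomal glycoprotein, by 0.16 on the log2 scale. Scaled to library totals Cd68 stood at −0.09. Of 13 complement genes, 6 were called higher and 7 lower, 5 and 6 of them at least 2-fold (median −0.30). Beside C3, Cfp, properdin, rose from 174 ± 13.4 to 694 ± 59.8 CPM.

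Lysosomal genes moved in both directions. Of 24 tested, 12 were called higher and 8 lower, 3 and 5 of them at least 2-fold, and the median of 0.08 turned to −0.17 when scaled to library totals, with 7 called higher and 13 lower. Ctsz, cathepsin Z, rose from 502 ± 33.4 to 3675 ± 94.9 CPM and Ctsk, cathepsin K of osteoclasts, from 2.71 ± 1.12 to 27.1 ± 5.002 CPM. Lgmn, legumain, fell from 1099 ± 187 to 181 ± 17.3 CPM, Ctsl, cathepsin L, from 999.9 ± 71.7 to 232 ± 21.99 CPM, Ctsc, cathepsin C, from 457 ± 52.1 to 107 ± 3.38 CPM and Ctsd, cathepsin D, from 3508 ± 170.5 to 1185 ± 76.98 CPM. The groups did not overlap for any of these 6 proteases, which were named for large changes. In the list 17 of 24 did not overlap, against 51.2% of all genes.

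Most genes of cell fusion and osteoclasts rose. Of 16 tested, 11 were called higher and 5 lower, 10 and 3 of them at least 2-fold (median 2.72). Ocstamp, a membrane protein of cell fusion, rose from 0.322 ± 0.3797 to 106 ± 8.98 CPM, Mmp9, gelatinase B, from 3.72 ± 4.69 to 807 ± 164 CPM and Car2, carbonic anhydrase 2, from 0.0541 ± 0.0356 to 12.7 ± 1.88 CPM. Tnfrsf11a, the receptor RANK, fell from 178 ± 44.3 to 48.98 ± 3.01 CPM, Nfatc1, the osteoclast transcription factor, from 109.6 ± 6.53 to 45.8 ± 1.68 CPM and Cd81, a tetraspanin, from 165 ± 22.8 to 82.1 ± 11.3 CPM. The upper end of the Mmp9 control range, 12.8 CPM, was replicate 1. Ocstamp was at 87.9 ± 18.2 CPM in the IL4_IL13 group without a difference shown (adjusted p = 0.219), whereas Mmp9 was at 2.69 ± 2.63 CPM (log2 difference 8.17, adjusted p = 3.99e-09).

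Of 23 matrix proteases and inhibitors, 12 were called higher and 4 lower, 8 and 3 of them at least 2-fold (median 0.57). Mmp14, a membrane-bound collagenase, rose from 9.25 ± 3.46 to 151 ± 10.9 CPM. Spp1, osteopontin, fell from 616 ± 371 to 301 ± 24.6 CPM. Plau, urokinase, was at 531 CPM in Control replicate 1 and at 32.3 to 46.9 CPM in the other 5 controls, and its fall of 2.06 on the log2 scale shrank to 0.39 without that library. Its call was lost with limma voom (adjusted p = 0.101) and with the replicate block in the 12 libraries alone (adjusted p = 0.108). Without Control replicate 1, 1 member of the list and not 3 was at least 2-fold lower. Of 22 growth factors, 6 were called higher and 11 lower, 3 and 8 of them at least 2-fold (median −0.74). Vegfa, the angiogenic factor, fell from 65.4 ± 15.8 to 10.4 ± 0.454 CPM and Pdgfc, a platelet-derived growth factor, from 6.39 ± 3.02 to 0.9303 ± 0.322 CPM with overlap. Inhba, the activin A subunit, rose from 2.302 ± 1.65 to 15.3 ± 3.02 CPM, Csf1, M-CSF itself, from 11.6 ± 7.3001 to 35.1 ± 8.79 CPM and Igf1, insulin-like growth factor 1, by 0.54 on the log2 scale.

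Genes of dividing cells fell. All 24 mitosis genes tested were called lower, at least 2-fold and without overlap between the groups, against 15.1% of all genes at that size and 51.2% without overlap, and their median was −2.83. Mki67, which encodes the proliferation antigen Ki-67, had 304, 455 and 1004 CPM in the controls and 53.6, 58.8 and 101 CPM in the 3-cytokine libraries (log2 fold change −3.01 ± 0.26 (SE), adjusted p = 7.58e-09). Cenpf, a centromere protein, fell from 107 ± 34.000 to 5.53 ± 1.97 CPM, Kif23, a motor protein of cell division, from 100.1 ± 28.3 to 5.72 ± 1.89 CPM and Ccnb2, cyclin B2, from 68.5 ± 18.2 to 4.71 ± 1.5997 CPM. Control replicate 1 was the highest library for Mki67. Without it the list's median was −2.50, all 24 genes stayed called lower and 23 were at least 2-fold lower. Cenpf, Kif23 and Mki67 were at 114 ± 23.6 CPM, 97.4 ± 15.5 CPM and 739 ± 194 CPM in the IL4_IL13 group. All 24 members were called lower than there, against 29.3% of all genes.

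DNA replication genes were less uniform. Of 24 tested, 1 was called higher and 11 lower, 1 and 7 of them at least 2-fold (median −0.68), and these counts rested on Control replicate 1: without it 5 were called higher and 7 lower, 1 and 2 at least 2-fold, with a median of −0.11. With the replicate number as a block, 4 and not 7 were at least 2-fold lower. In that control the list's median lay 1.92 above the other 5 on the log2 scale. Tk1, thymidine kinase, fell by 2.24 (1.72 without replicate 1), Rrm2, a ribonucleotide reductase subunit, by 1.69 (1.10) and Mcm10, a replication origin factor, by 1.38 (0.98) on the log2 scale. Ung, the uracil glycosylase, was the called rise, with overlap, at 1.31 with replicate 1 and 2.77 without it, and its call was lost when any of 10 other single libraries was left out (adjusted p up to 0.0863). Of the 24 members, 23 were called lower than in the IL4_IL13 group, against 29.3% of all genes.

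Of 24 apoptosis and survival genes, 11 were called higher and 8 lower, 7 and 2 of them at least 2-fold. The list's median was 0.11 and turned to −0.14 when scaled to library totals, with 8 called higher and 12 lower. The rises were led by Bcl2a1d and Bcl2a1b, close copies of Bcl2a1a between which reads may be divided, from 0.501 ± 0.0811 to 27.3 ± 1.65 CPM and from 6.02 ± 1.19 to 51.3 ± 3.59 CPM. Fas, a death receptor, rose from 5.37 ± 0.842 to 42.5 ± 3.47 CPM. Bcl2l11, the death-promoting protein BIM, fell from 133 ± 22.9 to 51.6 ± 5.2996 CPM, Bcl2l1, the survival protein BCL-XL, from 76.5 ± 30.4 to 35.9 ± 3.64 CPM and Pmaip1, the death-promoting protein NOXA, from 15.9 ± 2.99 to 8.03 ± 1.11 CPM. Members that promote survival and members that promote death were found in both directions.

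Genes of mitochondrial energy metabolism rose. All 24 tested genes of oxidative phosphorylation and the tricarboxylic acid cycle were called higher, 14 of them at least 2-fold, against 36.4% and 11.5% of all genes (median 1.13). The groups did not overlap for 23 of the 24, against 51.2% of all genes. Idh3a, an isocitrate dehydrogenase subunit, rose from 25.7 ± 18.05 to 108 ± 5.36 CPM, Cycs, cytochrome c, from 1.58 ± 0.599 to 6.104 ± 0.633 CPM and Mdh2, malate dehydrogenase, from 91.4 ± 23.98 to 330.1 ± 10.03 CPM. Cycs has many processed pseudogenes, so that its level is uncertain. Scaled to library totals, 23 were called higher and 10 were at least 2-fold higher. Of 21 glycolysis and pentose phosphate genes, 16 were called higher and 2 lower, 9 of them at least 2-fold higher and none at least 2-fold lower (median 0.91). Pfkp, a phosphofructokinase, rose from 92.4 ± 31.9 to 686 ± 16.1 CPM, Slc2a1, the glucose transporter GLUT1, from 58.7 ± 22.4 to 229 ± 17.4 CPM and Pgk1, phosphoglycerate kinase, from 18.8 ± 9.45 to 60.7 ± 4.21 CPM. Hk1 and Pfkfb3, which act at the first steps of glycolysis, fell by 0.30 and 0.38 on the log2 scale.

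Lipid genes were less uniform. Of 21 genes of fatty acid uptake and oxidation, 14 were called higher and 3 lower, 5 and 2 of them at least 2-fold (median 0.36). Ppargc1b, a coactivator of mitochondrial genes, rose from 2.96 ± 0.471 to 58.6 ± 4.303 CPM and Cd36 from 404 ± 180.3 to 2636 ± 316 CPM. Cpt1a, which admits fatty acids to mitochondria, fell from 243 ± 14.6 to 132 ± 11.1 CPM, Plin2, a lipid droplet coat protein, from 618 ± 23.3 to 301 ± 11.6 CPM and Slc27a1, a fatty acid transporter, from 381 ± 27.6 to 179 ± 11.2 CPM. Of 20 cholesterol synthesis genes, 17 were called higher and 1 lower, 4 of them at least 2-fold higher (median 0.81). Without Control replicate 1, 18 were called higher and 11 were at least 2-fold higher (median 1.05), with the replicate block 7 were, and scaled to library totals 2 were. Mvd, a mevalonate pathway enzyme, rose from 17.8 ± 1.66 to 62.4 ± 2.59 CPM and Nsdhl, a sterol enzyme, from 16.5 ± 2.81 to 49.4 ± 1.96 CPM. Insig1, the sensor that restrains this pathway, was called lower at −0.16, with overlap, and was not called without Control replicate 1 (−0.09), with the replicate block, or without any 1 of 6 further libraries (adjusted p up to 0.119 over the 7 libraries).

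Of 12 genes of cholesterol efflux and LXR targets, 4 were called higher and 5 lower, 2 and 5 of them at least 2-fold (median −0.03). Abca9, a lipid transporter, fell from 119 ± 45.8 to 7.96 ± 1.31 CPM and Mylip, which degrades the LDL receptor, from 126 ± 28.1 to 23.3 ± 0.565 CPM. Scd2, a fatty acid desaturase, rose from 30.6 ± 6.23 to 214 ± 22.9 CPM, Nr1h3, which encodes LXRα, from 17.6 ± 1.56 to 36.1 ± 5.07 CPM and Abcg1, a cholesterol exporter, from 152 ± 59.8 to 267 ± 42.4 CPM. So the LXRα gene, Scd2 and Abcg1 rose while Apoe, Abca9 and Mylip fell.

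Most oxidative stress genes rose. Of 20 genes of the NRF2 route and oxidative stress, 15 were called higher and 2 lower, 11 and 2 of them at least 2-fold (median 1.22). Beside Slc7a11, Nqo1, a quinone reductase, rose from 14.8 ± 4.94 to 136 ± 14.6 CPM and Srxn1, sulfiredoxin, from 90.2 ± 33.2 to 722 ± 82.5 CPM. Sod1, the cytosolic superoxide dismutase, fell from 179 ± 6.03 to 86.4 ± 3.603 CPM and Ncf1, a subunit of the phagocyte oxidase, from 774 ± 65.7 to 332 ± 30.1 CPM. Of 14 iron and heme genes, 11 were called higher and 1 lower, 6 and 1 of them at least 2-fold (median 0.84). Tfrc, the transferrin receptor, rose from 41.8 ± 32.3 to 388 ± 41.6 CPM, Slc48a1, a heme transporter, from 335 ± 45.6 to 1094 ± 69.9 CPM and Cp, ceruloplasmin, from 1.63 ± 0.685 to 7.56 ± 1.75 CPM. Slc40a1, the iron exporter ferroportin, was the member that fell, from 163 ± 55.2 to 44.7 ± 2.998 CPM.

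Of 20 genes of ER stress and the amino acid response, 10 were called higher and 2 lower, 6 and 1 of them at least 2-fold (median 0.58). Without Control replicate 1, 16 were called higher and 1 lower, 10 of them at least 2-fold higher (median 0.99), and scaled to library totals 2 were at least 2-fold higher. Creld2, an ER chaperone-like protein, rose from 29.6 ± 7.44 to 103 ± 4.89 CPM, Atf3, a stress transcription factor, from 176 ± 30.1 to 547 ± 25.5 CPM and Herpud1, of ER protein disposal, from 43.8 ± 4.26 to 98.7 ± 5.68 CPM. Phgdh, the first enzyme of serine synthesis, fell by 1.17 (0.50 and not called without replicate 1) and Sesn2, a stress sensor, by 0.87 on the log2 scale. Of 14 hypoxia genes, 3 were called higher and 8 lower, 1 and 6 of them at least 2-fold (median −0.47). Ndrg1, a hypoxia-induced gene, fell from 71.05 ± 27.04 to 11.8 ± 1.93 CPM and Egln3, an oxygen sensor, from 8.94 ± 1.76 to 2.94 ± 1.11 CPM. Slc2a1 was the member at least 2-fold higher, and Car9, a carbonic anhydrase, and Ero1l, an ER oxidase, rose by 0.75 and 0.39 with overlap.

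**Figure D5:**
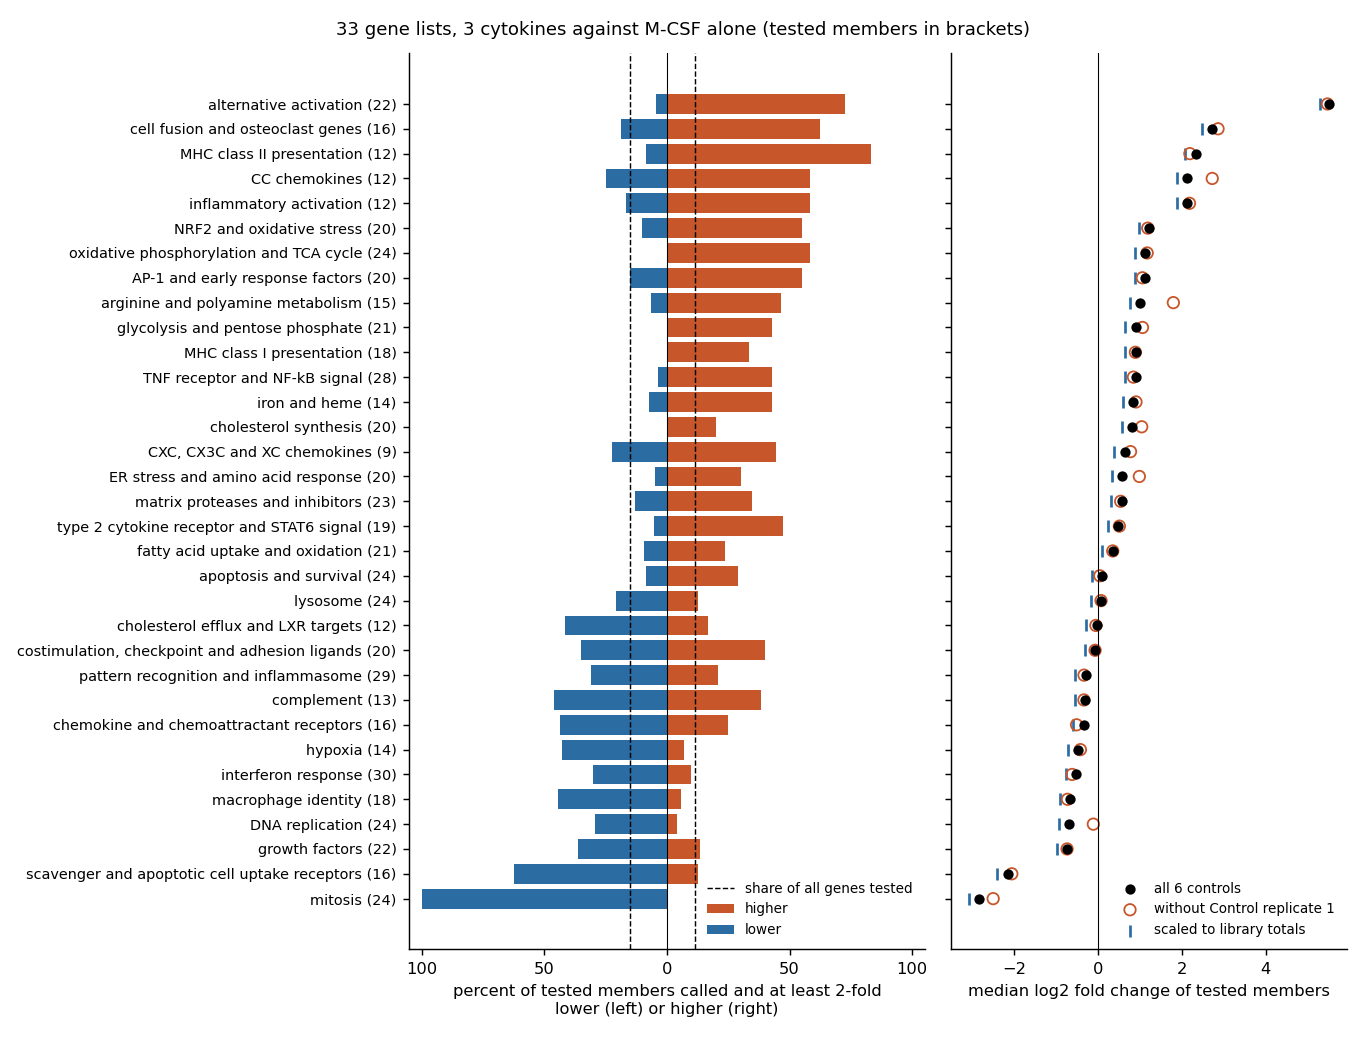
Left, the percent of each list's tested members called and at least 2-fold higher (orange, right) or lower (blue, left) in the 3-cytokine group, with the shares over all genes tested (11.5% and 15.1%) dashed. Right, the median log2 fold change of the tested members with all 6 controls (black), without Control replicate 1 (open circles) and scaled to library totals (ticks); the DNA replication median moves from −0.68 to −0.11 without that library.

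The named genes that moved most when Control replicate 1 was left out were chosen by that shift. Tuba8, H2-M2, Aqp9, Serpinb9b and Ung rose by more without it: H2-M2, an MHC class Ib gene that went from 1.697 ± 2.49 to 913 ± 104.6 CPM, by 9.03 with it and 10.40 without it, and Aqp9, a water and glycerol channel, by 5.14 and 6.35 on the log2 scale. Of Tuba8, a tubulin, that library held the only control read. Plau, Ccnd2, Cspg4, Nptx1 and Epha2 fell by less without it, for example Ccnd2, cyclin D2, by 2.14 with it and 1.15 without it. In Control replicate 1 Cspg4, a proteoglycan, stood at 93.6 CPM and Nptx1, a pentraxin, at 101 CPM, against control medians of 14.6 and 16.9 CPM. All 10 genes kept their direction. Only genes called both with and without that library could be chosen, so their calls say nothing about stability.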

How the data were processed

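RNA from 18 macrophage libraries was sequenced, and the file used is the authors' deposited table of raw counts per gene. Per the labels' protocols, 250 ng of total RNA entered a stranded poly(A) kit. Per the submitters' processing notes, the tools were STAR (2.5.2, also written 2.5.2b), FastQC 0.11.5, RSEM 1.3.0, featureCounts 1.5.1 and bcl2fastq 2.20.0.422, with build GRCm38. Their roles, the annotation and the strand setting were not given in the sources used here. Overlapping and antisense genes may therefore share counts.

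Of 48794 gene rows, 48434 were given a symbol from GENCODE M21 and 360 had none. Counts were tested with edgeR 4.0.16 (R 4.3.3): filterByExpr with a minimum count of 10 kept 13177 genes, TMM factors were applied, and a robust quasi-likelihood fit over all 3 groups of 6 libraries, without a block, gave the contrasts. A gene could pass the filter through the reads of 1 group alone. Both contrasts of the 3-cytokine group come from that fit and share its libraries. P-values were adjusted by Benjamini-Hochberg over all genes tested, with a threshold of 0.05. A log2 fold change uses a prior count of 0.125 and is no bound where a group is near 0, where count ratios are given. CPM and RPKM were computed from the counts, with RPKM over the union of exons. Alternatives were DESeq2 1.42.0, limma 3.58.1 (voom), other scalings and filters, a 1.5-fold null, a replicate block and libraries left out.

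The groups share replicate numbers, though no label says what a number stands for. Deviations from the group means correlated at 0.114 to 0.307 in the 6 same-numbered pairs and at −0.262 to 0.157 in differently numbered ones, so the numbers were taken to pair the libraries. The p-values printed are nevertheless unpaired, from the fit without a block. The fit with the replicate block is given for named genes whose call it changed and for some lists. It changed counts in other lists as well. Genes called higher went from 8 to 12 in arginine and polyamine metabolism and from 10 to 14 in ER stress and the amino acid response. All libraries differed by more than sampling noise (lowest chi-square per degree of freedom 2.72).

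The genes and lists were chosen with earlier results of these data known. Named genes were the 12 largest rises and 12 largest falls (called, no overlap, higher group averaging 5 CPM or more), up to 3 called members per direction of each of 33 lists at that level, 22 genes fixed by name, the 10 largest CPM gains and losses, and the 5 genes per direction most moved by Control replicate 1. The rule also took up to 3 members per list that did not pass, which are given by count only. Some genes that the rule selects are not reported here. Members named beyond the rule were chosen after their values were seen. Hpgd had been listed under iron in error and was taken out of that list after its values were seen.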

Additional observations from a re-analysis of the deposited data

Results flagged for a closer look

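A library was singled out where its gap to the nearest of its group's other 5 libraries took more of the group's range than Dixon's 95% critical value for 6 values allows. This was examined in 204 groups of 6 values and met in 40. The critical value gives about 1 in 20 only for independent, normally distributed values. These groups share libraries and genes, and some hold a single read, so the 40 cannot be set against that rate. Most of the 40 were Control replicate 1.

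Among genes, Control replicate 1 stood low for Adgre1 (1437 CPM), Fcgr1 (88.6 CPM), Prkcd (331 CPM), Itm2b (1029 CPM), Csf1r (3701 CPM), Hpgd (211 CPM), Gm45540 inside Hpgd (6.33 CPM) and Mpeg1 (2737 CPM). It stood high for Notch4 (84.6 CPM), Acod1 (13.3 CPM), Tnf (30.5 CPM), Tnfrsf1a (205 CPM), Mki67 (1004 CPM) and Bcl2a1a (0.151 CPM). It also held the highest sums of endothelial markers (23.25 CPM) and of erythroid and megakaryocyte markers (93.3 CPM) among the controls.

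Taken over whole lists, Control replicate 1 was singled out with a median log2 CPM of 5.90 for TNF receptor and NF-κB genes, 2.28 for CC chemokines, 4.04 for costimulation and adhesion, 5.43 for pattern recognition, 6.45 for DNA replication and 5.66 for apoptosis. The same held at 6.33 for cholesterol efflux, 5.49 for arginine and polyamine metabolism, 6.14 for ER stress, 9.26 for lysosome and 4.61 for AP-1 genes. For NRF2 and oxidative stress genes it was Control replicate 5, at 7.45. No label gives a reason for the position of Control replicate 1, and its cause was not tested.

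Among genes, the other controls that stood apart were replicate 4 for Pdcd1lg2 (0.174 CPM) and Ccl17 (0.0580 CPM) and replicate 5 for Apol7c (0.220 CPM) and Retnla (0.331 CPM). In the 3-cytokine group, replicate 1 stood apart for Mki67 (101 CPM), Il1b (2.12 CPM) and Gpr34 (0.0685 CPM), replicate 2 for Apol7c (60.3 CPM), replicate 3 for Fcgr1 (1.95 CPM), replicate 4 for Ctsd (1029 CPM), and replicate 6 for Slit1 (0.375 CPM) and F10 (316 CPM).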

How the results depend on the processing

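Of the 205 named genes, 195 kept their direction and their call in every alternative that tested them (22 run on single genes, 21 for some). All 205 were called in the main fit, and most were chosen for a large change in these libraries. Their stability therefore does not stand for that of all genes tested. In at least 1 alternative 9 lost the call, and 1 turned: Cd68 stood at −0.0869 when scaled to library totals. The 9 were Insig1, Mrc1, Ung, Phgdh, Plau, Ccl25, Ero1l, Abcg1 and Stat6. Ero1l and Abcg1 lost it with library totals (adjusted p = 0.353 and 0.0628), Stat6 with no filter on low counts (adjusted p = 0.233), and Ccl25 there and without replicate 6 of the 3-cytokine group (adjusted p = 0.0544); the cause was not tested. Against a null of a 1.5-fold change, which asks for a larger effect by construction, 4437 genes were called, 2075 higher and 2362 lower. Leaving out 1 library at a time gave 9472 to 10371 called genes, the most without Control replicate 1. With the replicate block, 10185 genes were called (5046 higher and 5139 lower), and of the named genes the block changed the call of Insig1 (in the 12 libraries compared alone, with the block, those of Insig1 and Plau were missed); with the block and without Control replicate 1, an alternative chosen after seeing the data, 10700 were. DESeq2 called 9748 genes and limma voom 9660. Scaling to library totals also moved some list counts by over 1.5 times: in cholesterol efflux and LXR targets 2 and not 4 were called higher, in DNA replication 11 and not 7 were at least 2-fold lower, in apoptosis 4 and not 2, in type 2 receptors and STAT6 3 and not 1, and in fatty acid uptake 5 and not 3 were called lower. Genes of few reads are limited by depth, and their ratios carry wide counting intervals.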
